A study of Mus musculus with 12 samples.

Results

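The replication-dependent histone genes were described in total RNA from the hippocampus of APP/PS1 and wild-type (WT) mice. They were taken as every symbol of the total RNA table that starts with Hist1h, Hist2h, Hist3h or Hist4h, which gave 69 of 24736 symbols, and 64 of the 69 passed the expression filter and were tested. The APP/PS1 mice were 4-month-old males that carried both the APPswe and the PSEN1dE9 transgene, and the WT mice were male littermates of the same age. Each genotype had 3 total RNA libraries, numbered 1, 2 and 3 for APP/PS1 and 1, 2 and 4 for WT, made with a TruSeq stranded total RNA kit, a type of kit that does not select for poly(A) tails. The design gives 3 mice per genotype, so each library was taken as a separate mouse. Whole hippocampus was used, so fewer cells of a type and less RNA per cell cannot be told apart in any value given here. In lines of this kind the APP transgene is a mouse gene with humanised sequence and both transgenes are driven by the prion protein promoter, so expression does not follow the endogenous genes.

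Histones package DNA into nucleosomes, each with a core of H2A, H2B, H3 and H4 and often a linker histone H1 on the DNA that enters and leaves it. The replication-dependent genes supply the bulk of these proteins while a cell copies its DNA. They are short, have almost no introns, and most of their messages end in a stem-loop in place of a poly(A) tail, so libraries selected for poly(A) lose many of them. Most cells of the adult hippocampus do not divide, apart from neural progenitors of the dentate gyrus, glial precursors and some vascular and immune cells, and some histone genes are also read into polyadenylated messages in resting cells. The same protein is encoded by many gene copies, so the copies differ mainly in their flanking DNA and in how much each is transcribed.

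The symbols comprised 6 of H1, 19 of H2A, 19 of H2B, 12 of H3 and 13 of H4. Of the 55 symbols named Hist1, 54 lay on chromosome 13 between 21715711 and 23934913 (GRCm38.p6, the same build as mm10). The Hist1h2al symbol lay outside that cluster at chr13:51200084-51203066, where RefSeq lists a transcribed pseudogene named H2af-ps2. The 10 Hist2 symbols lay within 50.3 kb of chromosome 3, the 3 Hist3 symbols within 6.28 kb of chromosome 11, and Hist4h4 lay alone on chromosome 6.

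Promoter sequence from RefSeq (GRCm38.p6) was at hand for 62 of the 69 symbols, in 63 windows of 300 bases that run from 250 bases before to 50 bases after each annotated start. The windows below are 150 bases each, 130 before the start and 20 from it on, printed 5′ to 3′ in the direction of transcription. They show the H4 genes that the results turn on, including the most abundant one and both with an unadjusted p under 0.05. Capitals mark the letters GGTCCG, the core of an element known from H4 promoters, and, in Hist1h4d, also CCAAT on the opposite strand and TATAAA.

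Hist1h4d (chr13:23581438-23581587, plus strand): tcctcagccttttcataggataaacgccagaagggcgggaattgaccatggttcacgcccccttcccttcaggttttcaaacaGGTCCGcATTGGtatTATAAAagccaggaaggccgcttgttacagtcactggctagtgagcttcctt
Hist1h4b (chr13:23756807-23756956, plus strand): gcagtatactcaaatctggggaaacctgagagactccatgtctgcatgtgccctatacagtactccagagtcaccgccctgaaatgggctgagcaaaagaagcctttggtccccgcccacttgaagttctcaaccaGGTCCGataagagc
Hist1h4i (chr13:22041343-22041492, minus strand): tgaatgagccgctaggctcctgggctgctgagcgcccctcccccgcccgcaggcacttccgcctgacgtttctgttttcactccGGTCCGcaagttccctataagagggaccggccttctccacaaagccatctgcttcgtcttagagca
Hist1h4h (chr13:23530914-23531063, plus strand): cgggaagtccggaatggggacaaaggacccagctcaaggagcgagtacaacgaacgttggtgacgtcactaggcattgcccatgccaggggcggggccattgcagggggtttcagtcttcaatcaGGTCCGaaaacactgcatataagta
Hist4h4 (chr6:136804412-136804561, minus strand): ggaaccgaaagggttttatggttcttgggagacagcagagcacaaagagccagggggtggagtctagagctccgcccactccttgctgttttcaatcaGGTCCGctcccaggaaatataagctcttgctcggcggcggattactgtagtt

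The hexamer began 47 bases before the annotated start in Hist1h4d, 46 before it in Hist1h4i, 32 before it in Hist4h4 and 5 before it in Hist1h4h. In Hist1h4b it lay past the annotated start, at base 6. On either strand GGTCCG was present in 11 of 12 H4 windows, in 1 of 17 H2B and 1 of 10 H3 windows, and in 0 of 6 H1 and 0 of 18 H2A windows, against 8.25% of the 32851 promoter windows in the table. This motif was chosen after the H4 promoters were seen.

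The other types carried different letters, shown by the H2B gene Hist2h2bb and the linker gene Hist1h1c. Among H2B symbols with a span of at most 1 kb, Hist2h2bb is the most abundant per kb. Its capitals mark CCAAT and the octamer ATTTGCAT, which POU-domain factors bind. In Hist1h1c, the capitals mark AAACACA, the AC box of H1 genes, and CCAAT.

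Hist2h2bb (chr3:96269570-96269719, plus strand): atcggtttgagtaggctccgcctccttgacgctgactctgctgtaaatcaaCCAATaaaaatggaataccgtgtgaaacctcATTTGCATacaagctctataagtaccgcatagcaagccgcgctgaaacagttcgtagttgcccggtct
Hist1h1c (chr13:23738677-23738826, plus strand): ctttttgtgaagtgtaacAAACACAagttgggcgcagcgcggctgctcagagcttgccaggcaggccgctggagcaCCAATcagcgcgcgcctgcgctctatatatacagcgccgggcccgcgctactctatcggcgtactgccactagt

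The letters CCAAT were present in all 6 H1, 18 H2A, 17 H2B and 10 H3 windows but in 3 of 12 H4 windows, against 37.4% of all windows. The octamer was found in 7 of 18 H2A and 7 of 17 H2B windows and in none of the H1, H3 or H4 windows, against 1.74% of all windows. The AC box was found in 5 of 6 H1, 2 of 18 H2A and 2 of 17 H2B windows, against 7.18% of all windows. The letters TATAAA were in 8 of 12 H4, 4 of 6 H1, 11 of 18 H2A, 8 of 17 H2B and 4 of 10 H3 windows, against 13.6% of all. Both strands were searched, matches of different motifs were counted even where they overlapped, and head-to-head H2A and H2B genes share part of their windows. A match is a description of the letters and not of binding.

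Expression is given as CPM, the usual library-scaled count, computed from the estimated counts and the TMM-adjusted library size. Levels were compared between genes as CPM per kb of annotated span, for the 62 symbols with a span of at most 1 kb. The longer symbols left out were 6 of H2B, among them Hist1h2bc, and 1 of H2A. By CPM per kb H4 symbols were highest, with a median of 21.0 over the 6 libraries, against 6.38 for H1, 4.56 for H3, 3.08 for H2A and 2.88 for H2B. Hist1h4d led all symbols at 122 CPM per kb, followed by Hist2h4 at 64.0, Hist1h4h at 58.9, Hist2h2aa1 at 50.4, Hist4h4 at 46.0 and Hist3h2a at 45.2. The leading H2B symbol was Hist2h2bb at 29.5, the leading H1 symbol Hist1h1e at 14.6 and the leading H3 symbol Hist1h3d at 9.07 CPM per kb. The same order does not separate every neighbour beyond the spread between libraries. In CPM, Hist2h4, Hist2h2aa1, Hist4h4 and Hist2h2bb each varied more than 2-fold between libraries.

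**Figure D1:**
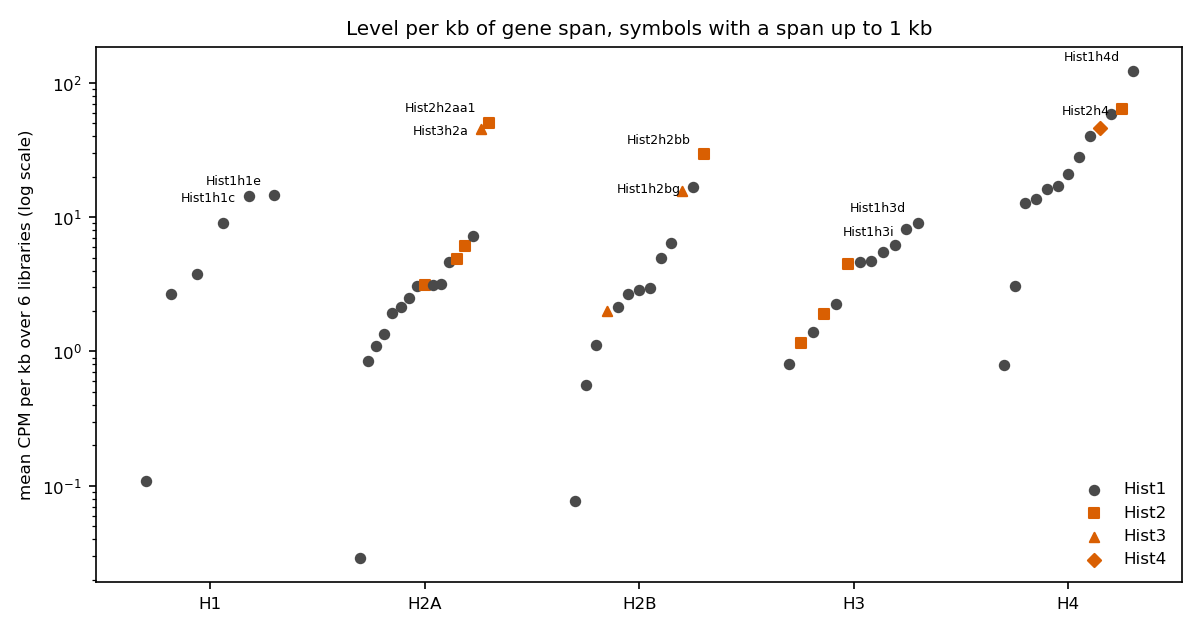
Mean level of each histone symbol over the 6 libraries, in CPM per kb of gene span on a log scale, by histone type (symbols with a span up to 1 kb and a value above 0). Marker shape gives the gene cluster, orange marks Hist2, Hist3 and Hist4, and the H4 symbols reach 122 CPM per kb while most H2A, H2B and H3 symbols lie below 10.

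A few copies held most of the signal. The 5 most abundant symbols carried 37.0% and the 10 most abundant 57.4% of the CPM summed over all 69. A mean above 10 CPM was seen for 12 symbols, 42 had 1 to 10 CPM and 15 had less than 1 CPM. Symbols near 0 included Hist1h1t, known as a testis linker histone, and Hist1h2ba and Hist1h2aa, known as testis H2B and H2A genes. Hist1h1t averaged 0.0731 ± 0.0385 CPM in APP/PS1 libraries and 0.0866 ± 0.0542 CPM in WT libraries (SD, n = 3 each), Hist1h2ba had at most 0.0552 CPM in any library, and Hist1h2aa was at 0 counts in all 6. The 5 symbols that did not pass the filter were Hist1h2ba, Hist1h2aa, Hist2h2aa2, Hist1h2ao and Hist2h3c1. The ratio of the highest to the lowest library was also larger for histone symbols, among genes with a mean of at least 1 CPM. Its median was 1.77 over the 53 tested histone symbols and 1.39 over 14626 tested genes. More than 2-fold variation was seen for 19 (35.8%) of these symbols, against 16.8% of those genes. Levels above 1 CPM and spans were not matched, and the 53 include Hist2h3c2 and Hist1h2br, which were at 0 in some libraries.

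Summed over the 69 symbols, histone transcripts reached 424, 387 and 515 CPM in APP/PS1 replicates 1, 2 and 3, against 371, 358 and 379 CPM in WT replicates 1, 2 and 4. The sums did not overlap, but APP/PS1 replicate 3 stood well above the other 2 of its group. The means were 442 ± 65.5 CPM in APP/PS1 libraries and 370 ± 10.5 CPM in WT libraries (SD, n = 3 each), a log2 ratio of 0.26, and the APP/PS1 mean without replicate 3 was 406 CPM. Sums of the symbols other than H4 overlapped, at 242, 212 and 268 CPM in APP/PS1 and 208, 199 and 217 CPM in WT libraries.

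No single histone gene passed the test, and neither did App, with a log2 fold change of 1.04 (edgeR adjusted p = 0.117). By edgeR's quasi-likelihood test with Benjamini-Hochberg adjustment over 18060 genes, 0 of 64 tested symbols had an adjusted p under 0.05, against 0.00554% of all genes (1 gene), and no symbol had an adjusted p below 0.887. At an unadjusted p under 0.05, Hist1h4b and Hist1h4i were higher in APP/PS1, 3.1% of those tested against 1.9% of all genes, and 0 symbols were lower, against 1.52% of all genes. DESeq2 gave 0 calls among the histone symbols and 26 among all genes (0.144%), with 3 histone symbols at an unadjusted p under 0.05, the third being Hist2h4. The log2 fold change (APP/PS1 over WT) was positive for 46 of 64 symbols, against 52.3% of all genes, with a median of 0.12 against 0.01 over all genes. Without APP/PS1 replicate 3 it was positive for 44 of those 64, with a median of 0.08. The 64 include Hist2h3c2 but not Hist2h3c1, with which it shares promoter sequence. After summing 3 such pairs, described below, the median in all libraries was 0.11.

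**Figure D2:**
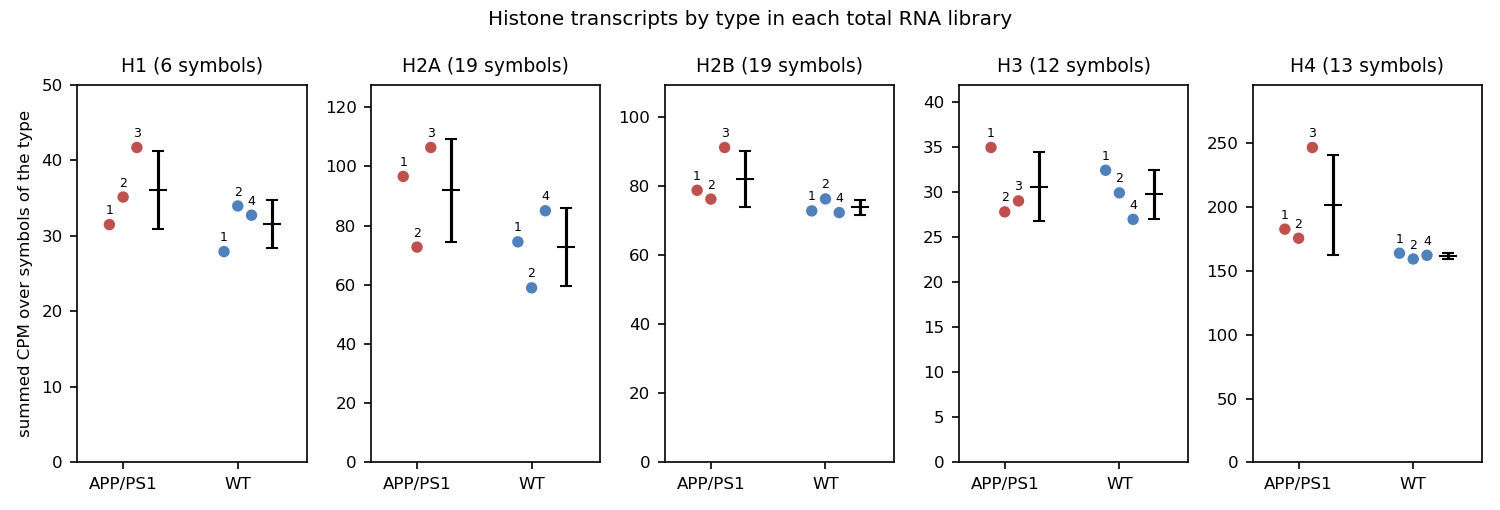
Summed CPM of each histone type in each library (points, labelled by replicate number), APP/PS1 left of WT, with mean ± SD of 3 libraries beside the points. The H4 sums do not overlap between genotypes, 175 to 246 CPM in APP/PS1 libraries and 159 to 164 CPM in WT libraries, while those of H1, H2A, H2B and H3 overlap.

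The H4 genes, which encode the partner of H3 in the core tetramer, were the only type whose summed level did not overlap between genotypes. They summed to 183, 175 and 246 CPM in APP/PS1 replicates 1, 2 and 3, against 164, 159 and 162 CPM in WT replicates 1, 2 and 4. The log2 ratio of the means was 0.32, and 12 of 13 symbols had a positive log2 fold change, with a median of 0.37. Without APP/PS1 replicate 3 these became 10 of 13 and a median of 0.11. H4 made up 42.8% to 47.9% of all histone CPM in each of the 6 libraries.

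Hist1h4d, the most abundant copy, had 51.4, 49.1 and 53.6 CPM in APP/PS1 libraries and 44.5, 46.5 and 48.2 CPM in WT libraries. Every APP/PS1 value lay above every WT value, by a log2 fold change of 0.15 (SE 0.08, edgeR adjusted p = 0.887). Hist1h4b had 7.50, 6.32 and 7.63 CPM in APP/PS1, against 5.58, 5.12 and 4.69 CPM in WT libraries. Its means of 7.15 ± 0.72 CPM in APP/PS1 libraries and 5.13 ± 0.445 CPM in WT (SD, n = 3 each) were separated by more than the spread of either group. Its log2 fold change of 0.48 (SE 0.14) had the smallest unadjusted p among the histone symbols, 0.0113, and an adjusted p of 0.887 by edgeR. Hist1h4i had 5.30, 7.16 and 5.75 CPM in APP/PS1, against 4.15, 3.37 and 4.84 CPM in WT libraries, again with no overlap (log2 fold change 0.56, SE 0.19, unadjusted p 0.0244). Without APP/PS1 replicate 3 both were again at an unadjusted p under 0.05, against 1.88% of all genes higher in that fit, and Hist2h3c1 was lower, against 2.15%. Hist1h4b was so in each of the 6 fits that left out 1 library. Hist1h4i was not without APP/PS1 replicate 2, WT replicate 1 or WT replicate 2. These fits share libraries, and Hist1h4b was picked as the smallest p, so they are not separate support. At that threshold they held from 345 of 18354 to 1501 of 18375 genes, in either direction. With the replicate number as a block, Hist1h4b had an unadjusted p of 0.0647 by edgeR. Groups without overlap were found for Hist1h4d, Hist1h4b, Hist1h4i and Hist1h4m. These were 4 of 64 symbols (6.25%) with APP/PS1 above WT, near the 5.63% of all genes, and 0 symbols had APP/PS1 below WT, against 4.76%. All 4 were H4 genes, and Hist1h4m was at a low level, with 0.274 to 0.549 CPM in APP/PS1 and 0.237 to 0.272 CPM in WT libraries. Summed with Hist1h4n, with which it shares promoter sequence, Hist1h4m did overlap between genotypes.

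Hist2h4, Hist4h4 and Hist1h4h, also abundant, had their highest values in APP/PS1 replicate 3. Hist2h4 had 24.7, 18.8 and 46.4 CPM in APP/PS1, against 20.7, 18.6 and 18.2 CPM in WT libraries. Hist4h4 had 20.5, 7.60 and 42.2 CPM in APP/PS1, against 18.8, 19.1 and 13.1 CPM in WT libraries. Both the highest and the lowest Hist4h4 value were thus in APP/PS1 mice. The log2 fold change was 0.65 (SE 0.32) for Hist2h4 and 0.46 (SE 0.55) for Hist4h4, and without replicate 3 it was 0.18 and -0.28. Hist1h4h had 22.0, 26.3 and 36.9 CPM in APP/PS1 libraries and 19.9, 25.4 and 23.1 CPM in WT libraries, with log2 fold changes of 0.32 (SE 0.20) in all libraries and 0.08 without that replicate. Hist1h4a was the exception in sign, at 9.36 ± 1.41 CPM in APP/PS1 libraries and 9.71 ± 2.90 CPM in WT libraries (SD, n = 3 each).

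**Figure D3:**
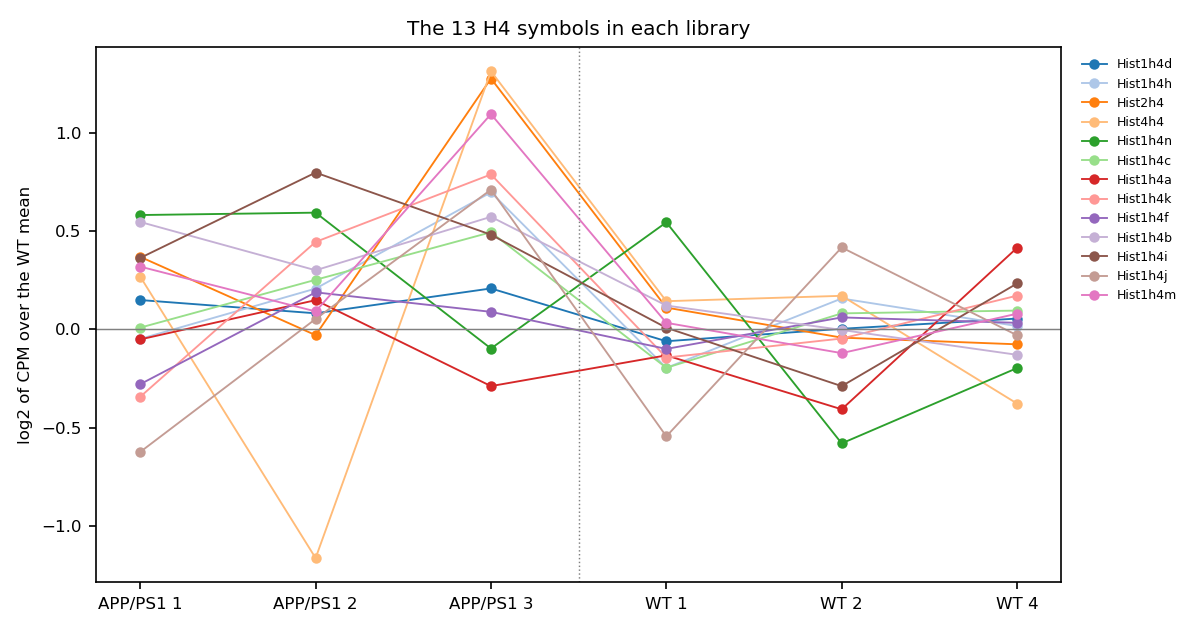
Log2 ratio of each library's CPM to the WT mean for the 13 H4 symbols, with the APP/PS1 libraries left of the dotted line and the WT libraries right of it. Hist2h4 and Hist4h4 stand out in APP/PS1 replicate 3, where 9 of 13 H4 symbols had their highest value, and Hist4h4 is lowest in APP/PS1 replicate 2.

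APP/PS1 replicate 3 also differed from the other libraries in its tissue markers. A list of 5 cerebellar neuron genes summed to 50.5, 50.7 and 1569 CPM in APP/PS1 replicates 1, 2 and 3 and to 47.9 to 58.0 CPM in WT libraries. All 4 of its tested genes, Cbln1, Cbln3, Pcp2 and Calb2, were highest in that library, and Gabra6, which did not pass the filter, had 283 CPM there against at most 0.329 CPM elsewhere. Hippocampal neuron genes summed to 1276, 1124 and 741 CPM in APP/PS1 libraries and to 1133 to 1220 CPM in WT libraries, and all 10 were lowest in that library. A list of 5 neuroblast genes summed to 89.6, 85.5 and 309 CPM in APP/PS1 libraries and to 68.8 to 89.5 CPM in WT libraries. Of these 5, 2 were highest and 3 lowest in APP/PS1 replicate 3. Erythroid genes summed to 185, 202 and 536 CPM in APP/PS1 libraries and to 173 to 348 CPM in WT libraries. Among the 64 tested histone symbols, 24 (37.5%) were highest in APP/PS1 replicate 3, against 31.4% of all genes, but the types went apart. The median deviation of log2(CPM + 0.1) in that library from a gene's mean over the other 5 libraries was 0.44 for H4 and -0.33 for H2A. Over all genes tested it was 0.01. Of the 12 tested H2A symbols named Hist1, Hist1h2al among them, 6 were lowest there, against 30.3% of all genes. Types also differed in other libraries, as in WT replicate 1, where this median was 0.18 for H2A and -0.19 for H4. The part of the tissue markers in these values was not tested.

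H2A, which pairs with H2B in the dimers of the nucleosome, summed to 96.6, 72.7 and 106 CPM in APP/PS1, against 74.5, 59.0 and 85.0 CPM in WT libraries. The groups overlapped, and 10 of 16 tested symbols had a positive log2 fold change, with a median of 0.02. The sum rests on a few genes outside the Hist1 cluster. Hist2h2aa1 had 25.8, 25.1 and 44.8 CPM in APP/PS1, against 29.5, 11.0 and 32.2 CPM in WT libraries (log2 fold change 0.40, SE 0.43). Hist3h2a had 23.2, 20.8 and 31.9 CPM in APP/PS1, against 18.1, 19.9 and 23.9 CPM in WT libraries (0.29, SE 0.19). Both overlapped between genotypes. Without APP/PS1 replicate 3 the log2 fold changes were 0.07 for Hist2h2aa1 and 0.09 for Hist3h2a, and without WT replicate 2 that of Hist2h2aa1 was 0.05. Hist3h2a lies within the annotated span of Trim17, which had 7.92 ± 0.586 CPM in APP/PS1 libraries and 8.15 ± 1.74 CPM in WT libraries (SD, n = 3 each). Hist2h2ac had the largest log2 fold change of the H2A symbols at 0.65 (SE 0.37), with 2.11, 4.06 and 4.31 CPM in APP/PS1, against 3.22, 1.61 and 1.83 CPM in WT libraries, and it was 1.03 with WT replicate 1 left out. Hist1h2an had the lowest at -0.47 (SE 0.40), at 0.212 to 0.414 CPM in APP/PS1 libraries and 0.331 to 0.617 CPM in WT libraries. Hist1h2ab averaged 2.12 ± 0.545 CPM in APP/PS1 libraries and 2.53 ± 0.344 CPM in WT libraries, and Hist1h2ah 0.916 ± 0.280 CPM in APP/PS1 libraries and 1.09 ± 0.248 CPM in WT libraries (SD, n = 3 each). Their log2 fold changes were -0.25 (SE 0.24) and -0.25 (SE 0.33), and without APP/PS1 replicate 3, the lowest library for both, -0.07 and -0.02. The pseudogene locus Hist1h2al averaged 8.55 ± 2.78 CPM in APP/PS1 libraries and 8.22 ± 2.78 CPM in WT libraries (SD, n = 3 each). With this locus included, the 12 tested H2A symbols named Hist1 divided evenly, 6 with a positive and 6 with a negative log2 fold change.

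H2B summed to 78.7, 76.1 and 91.0 CPM in APP/PS1, against 72.7, 76.2 and 72.2 CPM in WT libraries. The groups overlapped, and 10 of 18 tested symbols had a positive log2 fold change, with a median of 0.07. Without APP/PS1 replicate 3, 8 of 18 were positive and the median was -0.04. Hist1h2bc, the most abundant symbol of this type by CPM, had 23.3, 20.8 and 19.8 CPM in APP/PS1, against 21.8, 24.1 and 12.7 CPM in WT libraries. The WT libraries thus held both its highest and its lowest value, and its log2 fold change was 0.12 (SE 0.23). Hist2h2bb had 12.6, 14.3 and 22.7 CPM in APP/PS1, against 8.83, 13.3 and 15.4 CPM in WT libraries (0.40, SE 0.29). Its log2 fold change was 0.10 when APP/PS1 replicate 3 was left out and 0.21 when WT replicate 1 was. Hist1h2bg had 9.10, 6.68 and 6.26 CPM in APP/PS1, against 8.94, 7.92 and 7.62 CPM in WT libraries (-0.15, SE 0.17). Hist1h2bn averaged 1.33 ± 0.171 CPM in APP/PS1 libraries and 1.51 ± 0.146 CPM in WT libraries (SD, n = 3 each), with a log2 fold change of -0.19 (SE 0.20). Hist3h2ba, whose span overlaps the gene Gm51864, had 12.6 CPM in APP/PS1 replicate 3 and 5.59 to 6.83 CPM in the other 5 libraries.

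H3, whose tail carries many of the known histone marks, showed the smallest difference of sums. It summed to 34.9, 27.8 and 29.0 CPM in APP/PS1, against 32.4, 29.9 and 27.0 CPM in WT libraries, a log2 ratio of 0.04. A positive log2 fold change was found for 9 of 11 tested symbols, with a median of 0.16, but each of the 11 overlapped between genotypes. The 9 include Hist2h3c2 but not Hist2h3c1, which did not pass the filter, and this pair, when summed, had a log2 fold change of -0.25. Hist1h3e averaged 5.68 ± 1.40 CPM in APP/PS1 libraries and 5.61 ± 0.425 CPM in WT libraries (SD, n = 3 each). Hist1h3f averaged 5.27 ± 1.19 CPM in APP/PS1 libraries and 4.72 ± 0.332 CPM in WT libraries, and Hist1h3d 4.33 ± 1.04 CPM in APP/PS1 libraries and 4.81 ± 0.612 CPM in WT libraries. Their log2 fold changes were 0.02 (SE 0.20), 0.16 (SE 0.19) and -0.15 (SE 0.21).

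The linker histones summed to 31.5, 35.1 and 41.7 CPM in APP/PS1, against 27.9, 34.0 and 32.7 CPM in WT libraries. The groups overlapped, and 5 of 6 symbols had a positive log2 fold change, with a median of 0.19. Hist1h1e, the most abundant linker gene, had 10.8, 12.6 and 12.9 CPM in APP/PS1, against 8.75, 12.2 and 11.1 CPM in WT libraries (log2 fold change 0.18, SE 0.15, and 0.05 without WT replicate 1). Hist1h1c had 9.57, 9.82 and 14.2 CPM in APP/PS1, against 9.33, 10.4 and 9.23 CPM in WT libraries (0.22, SE 0.18, and 0.0013 without APP/PS1 replicate 3). Hist1h1d averaged 7.26 ± 0.181 CPM in APP/PS1 libraries and 6.66 ± 0.744 CPM in WT libraries (SD, n = 3 each). Hist1h1b had 4.19 CPM in APP/PS1 replicate 3 and 1.31 to 2.05 CPM in the other libraries.

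**Figure D4:**
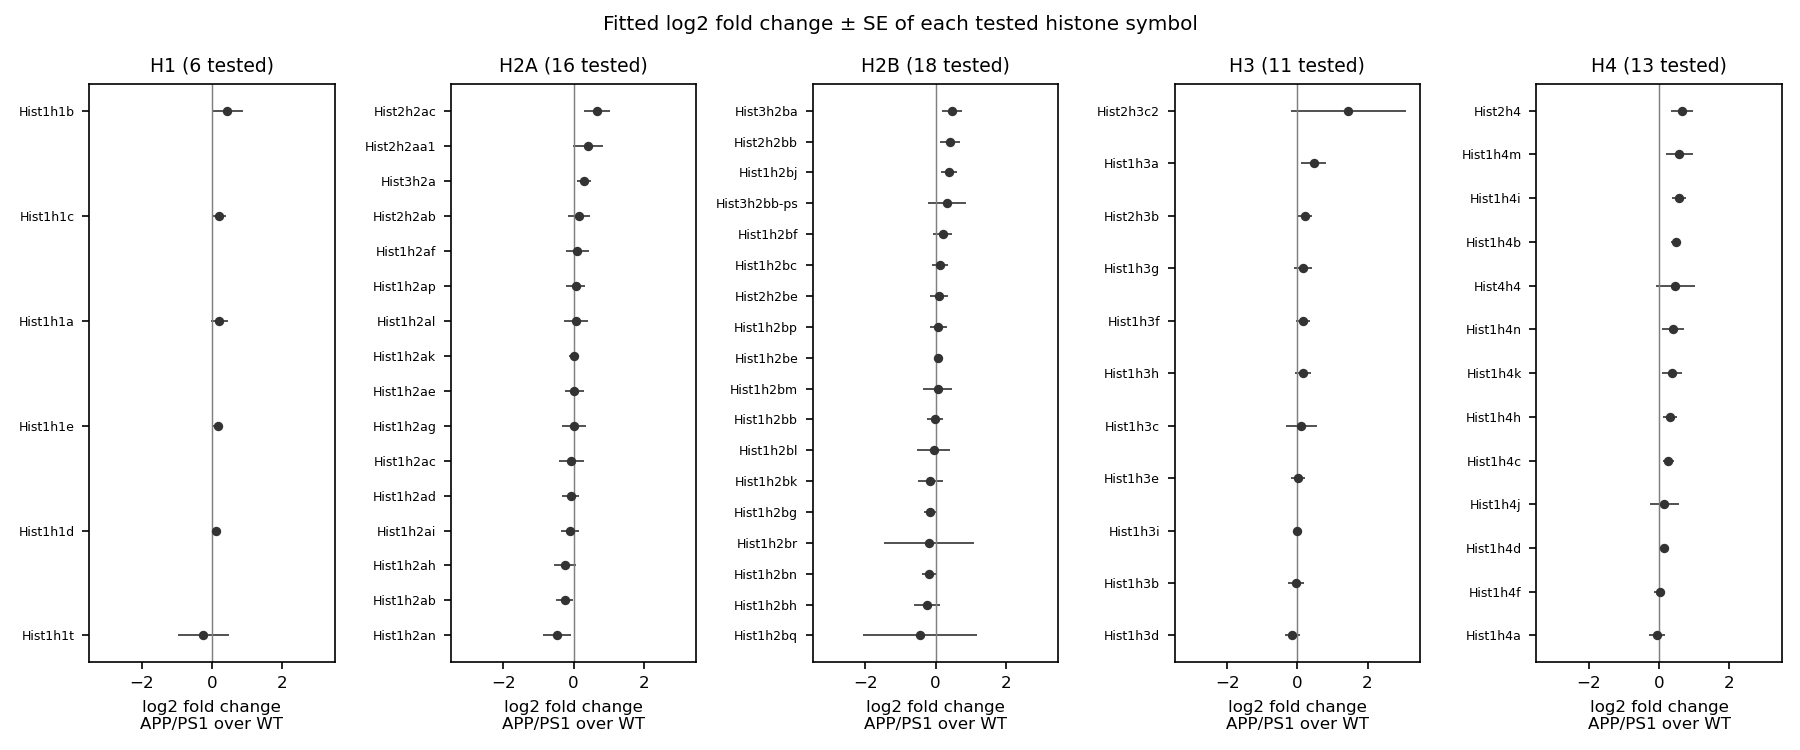
Fitted log2 fold change (APP/PS1 over WT) ± SE for the 64 tested histone symbols, one panel per type, sorted by value. Of the 13 H4 symbols 12 lie right of 0, the H2A and H2B symbols lie on both sides, and the widest bars belong to Hist2h3c2, Hist1h2br and Hist1h2bq of the pairs with shared promoter sequence.

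Sorted by cluster, the symbols named Hist1, among them the pseudogene locus Hist1h2al, held 66.8% of the histone CPM. They summed to 281, 280 and 296 CPM in APP/PS1, against 255, 258 and 257 CPM in WT libraries. The groups did not overlap, and each APP/PS1 mouse lay above every WT mouse by more than the range of the WT group. The log2 ratio of the means was 0.15, with 34 of 52 tested symbols positive and a median of 0.06. Within Hist1, the H4 genes summed to 137, 149 and 158 CPM in APP/PS1, against 124, 121 and 131 CPM in WT libraries, also without overlap. Symbols other than H4, summed over all clusters, did overlap. The other types of Hist1 were not summed apart. The median log2 fold change within Hist1 was 0.32 for H4, 0.19 for H1, 0.11 for H3, -0.03 for H2A and -0.04 for H2B. Without APP/PS1 replicate 3 these were 0.11, 0.13, 0.11, 0.06 and -0.04. The Hist2 genes summed to 92.5, 71.9 and 131 CPM in APP/PS1, against 73.4, 54.7 and 76.8 CPM in WT libraries. These groups overlapped, and although 8 of 8 tested symbols were positive, with a median of 0.40, 6 of the 8 were highest in APP/PS1 replicate 3. Without that replicate 6 of 8 were positive, with a median of 0.14. The 8 include Hist2h3c2 but not Hist2h3c1, which did not pass the filter, and this pair, when summed, had a log2 fold change of -0.25. The Hist3 genes summed to 30.0, 28.2 and 46.2 CPM in APP/PS1, against 24.2, 26.8 and 31.6 CPM in WT libraries, and all 3 were highest in APP/PS1 replicate 3.

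Some copies share long runs of promoter sequence, and the deposited values of such pairs were divided differently from library to library. Gene bodies were not compared, so how reads were divided was not tested. The windows of Hist1h2bq and Hist1h2br, which lie on opposite strands, were the same at all 300 bases, as their 150 bases nearest the start show (capitals mark CCAAT on either strand).

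Hist1h2bq (chr13:21810180-21810329, minus strand): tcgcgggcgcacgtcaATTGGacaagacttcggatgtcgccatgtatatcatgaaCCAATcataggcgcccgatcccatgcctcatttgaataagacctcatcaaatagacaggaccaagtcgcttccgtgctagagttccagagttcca
Hist1h2br (chr13:21833613-21833762, plus strand): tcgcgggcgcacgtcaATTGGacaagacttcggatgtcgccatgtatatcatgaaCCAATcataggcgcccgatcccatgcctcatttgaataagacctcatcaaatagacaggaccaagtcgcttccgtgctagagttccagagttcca

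Hist1h2bq had 1.34, 0.0222 and 0.359 CPM in APP/PS1, against 0, 1.92 and 0.387 CPM in WT libraries. Hist1h2br had 1.09, 2.36 and 1.55 CPM in APP/PS1, against 2.45, 0 and 3.23 CPM in WT libraries. WT replicate 1 thus gave all of its signal to Hist1h2br and WT replicate 2 all of it to Hist1h2bq. Their sum was 2.43, 2.38 and 1.91 CPM in APP/PS1, against 2.45, 1.92 and 3.62 CPM in WT libraries, and the summed counts gave a log2 fold change of -0.25 (SE 0.27).

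The H3 genes Hist2h3c1 and Hist2h3c2, whose windows share a run of 231 bases, behaved likewise. Hist2h3c1 had 2.55 CPM in WT replicate 1 and 2.03 CPM in WT replicate 2 and at most 0.00844 CPM in the other 4 libraries, while Hist2h3c2 was at 0 in those 2 libraries and at 1.46 to 2.46 CPM in the others. Taken alone, Hist2h3c2 had a log2 fold change of 1.45 (SE 1.65). The pair summed to 2.47, 1.55 and 1.47 CPM in APP/PS1, against 2.55, 2.03 and 1.98 CPM in WT libraries, with a log2 fold change of -0.25 (SE 0.26), so the sign turned once the pair was summed. Hist2h3c1 passed the filter and the adjusted threshold without WT replicate 4 (log2 fold change -8.04, edgeR adjusted p = 0.0131), the only library left out that gave any histone call.

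The H2A genes Hist2h2aa1 and Hist2h2aa2, with a shared run of 219 bases, summed to 43.1, 25.1 and 44.8 CPM in APP/PS1, against 29.5, 11.0 and 32.2 CPM in WT libraries. In APP/PS1 replicate 1 Hist2h2aa2 held 17.3 CPM of that sum, and in the other 5 libraries it had at most 0.0237 CPM. The summed log2 fold change was 0.64 (SE 0.42). For each of the 3 sums the edgeR adjusted p was 0.887. Values of single symbols of these pairs are therefore uncertain, while the type sums hold both copies. Hist1h4m and Hist1h4n share a run of 285 bases, and although Hist1h4m alone did not overlap between genotypes, the pair did, with 21.4, 21.5 and 13.7 CPM in APP/PS1 libraries and 20.8, 9.67 and 12.6 CPM in WT libraries.

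**Figure D5:**
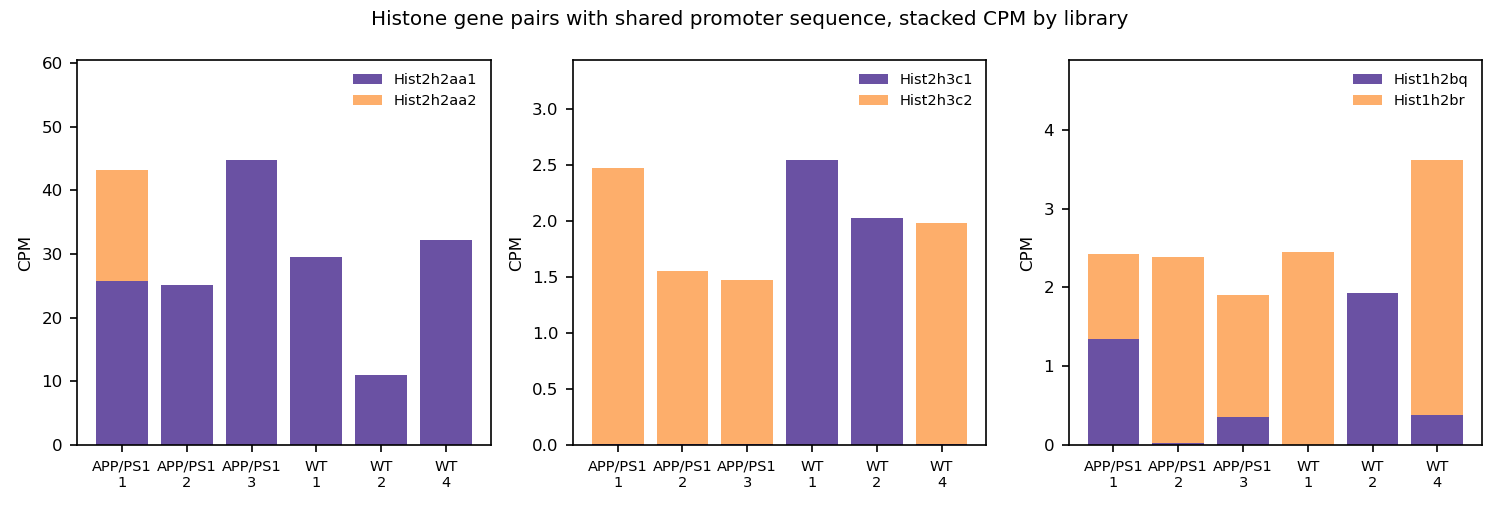
Stacked CPM of the 3 pairs of histone genes with shared promoter sequence in each library, APP/PS1 libraries left of WT libraries. The division within a pair differs between libraries: Hist2h3c1 holds the signal in WT replicates 1 and 2 and Hist2h3c2 in the other 4 libraries, Hist2h2aa2 holds a part in APP/PS1 replicate 1 alone, and Hist1h2bq and Hist1h2br divide theirs in varying shares. The height of the stack overlaps between genotypes.

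Many H2A and H2B genes stand side by side. There were 13 such neighbours no more than 300 bases apart, with gaps of 163 to 280 bases, and 10 are annotated head to head. Levels within such pairs could differ widely. In the 7 pairs that could be compared per kb, H2B over H2A ranged from 0.0444 for Hist3h2bb-ps over Hist3h2a to 7.79 for Hist1h2bg over Hist1h2ae, with a median of 1.38, and 4 of the 7 were above 1. RefSeq lists Hist3h2bb-ps as a transcribed pseudogene, and the next lowest ratio was 0.409 for Hist1h2bn over Hist1h2ak. The log2 fold changes of both genes had the same sign in 5 of the 11 pairs with both tested.

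Genes that act with the histone genes were given from lists, none of which had a member with an adjusted p under 0.05 by edgeR. Of 18 genes of histone gene transcription and 3′ end processing, 13 had a positive log2 fold change, with a median of 0.05. Slbp, which binds the stem-loop, averaged 11.6 ± 0.596 CPM in APP/PS1 libraries and 11.1 ± 0.823 CPM in WT libraries (SD, n = 3 each), and Npat, the coactivator of histone gene transcription, 61.8 ± 4.49 CPM in APP/PS1 libraries and 63.4 ± 4.44 CPM in WT libraries. Srrt, which links the cap-binding complex to RNA processing, had 109, 102 and 106 CPM in APP/PS1, against 92.4, 95.4 and 92.5 CPM in WT libraries, with no overlap and a log2 fold change of 0.18 (SE 0.07, edgeR adjusted p = 0.887). Cpsf2, a subunit of the cleavage complex, also did not overlap, at 52.2, 59.2 and 56.6 CPM in APP/PS1, against 49.7, 48.7 and 49.7 CPM in WT libraries. APP/PS1 lay above WT without overlap for 2 of the 18 genes, against 5.63% of all genes, and below it for 0, against 4.76%.

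Of 11 replication-independent variants, which are made in resting cells too and have polyadenylated messages, 8 were positive, with a median of 0.08, and 7 of the 11 were highest in APP/PS1 replicate 3. H3f3a, which encodes H3.3, had 55.5, 57.1 and 71.7 CPM in APP/PS1, against 48.8, 52.7 and 53.7 CPM in WT libraries. H3f3b, which encodes the same protein, had 103, 121 and 179 CPM in APP/PS1, against 101, 108 and 105 CPM in WT libraries. The H3f3a groups did not overlap and those of H3f3b did. H3f3a was the 1 of 11 variants without overlap, against 5.63% of all genes with APP/PS1 above WT. Of 19 histone chaperones 13 were positive, with a median of 0.05, and Asf1a, which carries H3 and H4 to new DNA, had 16.7 CPM in APP/PS1 replicate 3 and 8.42 to 9.71 CPM in the other 5 libraries.

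No gene of a list of S phase and proliferation passed the adjusted threshold. Its 28 members summed to 132, 137 and 166 CPM in APP/PS1, against 132, 135 and 137 CPM in WT libraries, and 16 were positive, with a median of 0.07. Pcna, the sliding clamp of the replication fork, averaged 24.1 ± 2.24 CPM in APP/PS1 libraries and 21.3 ± 2.31 CPM in WT libraries (SD, n = 3 each), while Mki67, a marker of cycling cells, averaged 4.09 ± 1.53 CPM in APP/PS1 libraries and 4.92 ± 0.0927 CPM in WT libraries. E2f1, a transcription factor of the G1 to S transition, was lower in every APP/PS1 library, at 3.39, 4.16 and 3.27 CPM, against 4.85, 5.14 and 5.65 CPM in WT libraries (log2 fold change -0.53, SE 0.16, edgeR adjusted p = 0.887). Ccne1, a cyclin E gene, did not overlap either, at 7.31, 6.88 and 6.20 CPM in APP/PS1, against 8.08, 8.69 and 7.47 CPM in WT libraries. Ccne2, the other cyclin E gene, had 5.42, 5.65 and 10.7 CPM in APP/PS1, against 4.78, 5.46 and 6.41 CPM in WT libraries. E2f1 and Ccne1 were the 2 of 28 genes without overlap, against 4.76% of all genes with APP/PS1 below WT. Among other RNAs that lack poly(A) tails, 11 of 17 listed were in the table and 8 were tested, with 6 positive and a median of 0.13. Malat1 averaged 15516 ± 1014 CPM in APP/PS1 libraries and 15539 ± 1129 CPM in WT libraries (SD, n = 3 each), and Rpph1, the RNA of RNase P, ranged from 777 to 1886 CPM in APP/PS1 libraries and from 815 to 2665 CPM in WT libraries.

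The genotype labels were checked on the App transgene. App had 3170, 3465 and 2948 CPM in APP/PS1, against 1580, 1522 and 1548 CPM in WT libraries, and Prnp, whose promoter and flanks such constructs carry, was 1.04 higher on the log2 scale. Of other cell type lists, all 10 choroid plexus genes were higher in APP/PS1, with a median log2 fold change of 0.71. They summed to 1891, 4221 and 2542 CPM in APP/PS1 libraries and to 1579 to 1893 CPM in WT libraries. All 10 myelin genes were lower with -0.26, and all 6 oligodendrocyte precursor and 8 microglial genes were lower with -0.21 each, the last 2 lists being lowest throughout in APP/PS1 replicate 3. Lists of 5 endothelial, 5 erythroid and 5 neuroblast genes held both signs, with medians of 0.01, 0.32 and -0.08. None of these genes passed the adjusted threshold. Their part in the histone values was not tested.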

How the data were processed

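RNA of the hippocampus from 3 APP/PS1 and 3 WT mice was read as 6 stranded total RNA libraries. The authors deposited estimated counts per gene symbol, as whole numbers. HISAT2, StringTie, DESeq and the build mm10 are named, with no role, in the submitters' processing notes. How reads were assigned to genes, on which strand and to which annotation is not given in the sources used here, and overlapping genes and similar copies may share or trade reads. Libraries summed to 120958765 to 146904552 estimated counts. The values 4 and 8 occurred 1817 and 1201 times in the table, against 897 and 588 times for 3 and 7. The values 1 and 5 were also common, at 990 and 1346 times. On the first of these 1 fragment was taken as about 4 counts, which was not tested, and the depth in fragments is uncertain.

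APP/PS1 was compared with WT on all genes with edgeR 4.0.16 under R 4.3.3, by the quasi-likelihood F-test with TMM factors, edgeR's default expression filter, no covariate, and Benjamini-Hochberg adjustment over 18060 genes at a threshold of 0.05. The SE of a log2 fold change comes from the fold change and its F statistic. The biological coefficient of variation was 26.5%, and the procedure was tested on simulated data. Sums over types, clusters and lists are given as values, with no test. Given with their values were the 3 most abundant symbols of each type, up to 5 per direction with the smallest unadjusted p, and, of the other lists, the 2 genes with the smallest p and the 2 most abundant, of which some are left out for space. The symbols, the gene lists and this rule were chosen with earlier results of these data known. Slbp, Npat, Pcna, Mki67, Ccne2, Hist3h2ba, Hist1h1b, Hist4h4, the summed pairs and the testis genes were added after their values were seen. The alternatives were other size factors, other filters, DESeq2 1.42.0, limma-voom (limma 3.58.1), the replicate number as a block, counts divided by 4, leaving out each library, and summing pairs with shared promoter sequence. The last was chosen after seeing the data. Small RNA values and the stem-loop sequences were not analysed here. One gene of the genotype check is not reported here.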

Additional observations from a re-analysis of the deposited data

How the results depend on the processing

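The count of histone symbols with an adjusted p under 0.05 was 0 under all 15 alternatives except leaving out WT replicate 4, which gave 1, Hist2h3c1, so that leaving out 1 library gave 0 to 1. Summed with Hist2h3c2, with which it shares promoter sequence, this gene had an edgeR adjusted p of 0.887 in all libraries. Over all genes the count was 1 as reported, 26 with DESeq2, 2 with the replicate number as a block, and 0 to 6 when 1 library was left out. The first APP/PS1 library, when left out, gave 6, the third gave 5, WT replicate 4 gave 4, and either of the other WT libraries gave 0. The median log2 fold change of the histone symbols was 0.12 as reported, 0.13 with the block, and 0.068 to 0.1955 when 1 library was left out. The replicate numbers share only a number in the labels, for 2 numbers only, and the correlations of deviations were 0.09 for number 1 and -0.04 for number 2, so the block has no stated basis.

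Of 330 log2 fold changes of 22 named symbols over 15 alternatives, 12 changed sign, in 7 symbols, none of which passed the threshold either way. They were -0.0152 for Hist1h3e with limma-voom, and with the replicate block -0.0245 for Hist1h1c, -0.0623 for Hist1h2bc, -0.0825 for Hist1h3e and 0.028 for Hist1h2ah. When 1 library was left out, values ran from -0.1563 to 0.1916 for Hist1h3e, from -0.0353 to 0.2729 for Hist1h3f, from -0.1912 to 0.2928 for Hist1h2al, from -0.3239 to 0.0134 for Hist1h3d and from -0.1116 to 0.3021 for Hist1h2bc. The log2 ratio of summed CPM ran from 0.15 to 0.41 for H4 and from 0.13 to 0.17 for Hist1 over the alternatives, and changed sign for H3 (-0.07 to 0.11) and for Hist4 (-0.28 to 0.88). The cause of these shifts was not tested. Depth limits the symbols under 1 CPM, and more so if 1 fragment stands for about 4 counts, as was taken here.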
